A study of Mus musculus with 5 samples.

Results

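The 37 genes described here encode the vacuolar proton pump (V-ATPase) and a group of proteins of the lysosomal membrane, measured by RNA sequencing in mammary fibroblasts of involuting and nulliparous mice. They are the rows whose symbol is on a list of 23 genes of the pump and 14 genes of lysosomal membrane proteins and transporters, out of 45706 rows in the table. All 37 were found, each in 1 row, and all 37 passed the filter on low values. The mice were of the Balb/c strain and carried no transgene or treatment in the labels. The involution group held 3 libraries of glands taken 6 days after weaning, and the nulliparous group held 2 libraries of glands of females that had not given birth. Cells of mammary glands 4 and 5 were sorted for PDGFRa, a surface receptor of fibroblasts, and their total RNA was sequenced. The libraries of a group are described as biological replicates. Pregnancy, lactation and weaning lie between the groups, so their effects cannot be told apart.

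Lysosomes degrade proteins, lipids and whole organelles at an acid pH that the V-ATPase maintains. The V1 sector of the pump, on the cytosolic side, splits ATP and turns a central stalk, and the V0 sector in the membrane carries the protons. Several subunits have paralogs with restricted tissues in mammals, such as the a4 and B1 subunits of kidney intercalated cells and the a3 (gene Tcirg1) and d2 subunits of osteoclasts. Proteins such as Lamp1 and Scarb2 line the lysosomal membrane, and channels and transporters pass ions, amino acids, sugars and cholesterol across it. The transcription factors TFEB, TFE3 and MITF are known to activate many of these genes through a promoter element around the bases CACGTG. In the mammary epithelium, lysosomes take part in the cell death that follows weaning.

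The promoter letters are shown for the members that hold this element, since it is the feature of sequence by which the family is known. RefSeq promoter windows (build GRCm38.p6, 250 bases before to 50 bases after a RefSeq start) matched 29 of the 37 members. There were 37 such windows, since some genes have several, and a gene was counted where any of its windows held the motif. Laptm4b, Atp6v1h, Npc1, Atp6v1c1, Atp6v1g1, Atp6v0d2, Atp6v1b2 and Atp6v0a2 were not matched. The motif CACGTG reads the same on both strands, and it lay in the windows of 8 of the 29 matched members (27.6%). It lay in the windows of 2187 of all 27025 genes that have one (8.09%) and of 1259 of 11198 such genes that were tested (11.2%). The longer TCACGTG, which contains CACGTG and was searched on both strands, lay in the windows of the same 8 members and of 1160 of the 27025 genes (4.29%). Its share among the genes tested was not computed. Stretches of the 8 windows follow, 5′ to 3′ on the strand of the gene, with each CACGTG in capitals.
Lamp1, chr8:13159070-13159160, plus strand: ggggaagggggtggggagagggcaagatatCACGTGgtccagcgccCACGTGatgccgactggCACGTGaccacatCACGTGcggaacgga
Atp6v0b, chr4:117887330-117887395, minus strand: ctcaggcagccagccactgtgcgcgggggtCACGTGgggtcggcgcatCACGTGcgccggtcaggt
Cln3, chr7:126583322-126583415, minus strand: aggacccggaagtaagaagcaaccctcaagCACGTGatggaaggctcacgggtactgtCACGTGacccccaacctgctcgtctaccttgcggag
Mcoln1, chr8:3500418-3500509, plus strand: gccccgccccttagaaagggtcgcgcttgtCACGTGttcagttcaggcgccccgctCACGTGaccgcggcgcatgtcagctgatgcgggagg
Atp6v1a, chr16:44139355-44139420, minus strand: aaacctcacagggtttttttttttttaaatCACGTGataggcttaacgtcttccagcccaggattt
Clcn7, chr17:25133346-25133390, plus strand: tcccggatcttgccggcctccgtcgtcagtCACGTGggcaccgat
Atp6v0d1, chr8:105566050-105566079, minus strand: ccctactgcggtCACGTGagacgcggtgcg
Atp6v0e, chr17:26676387-26676416, plus strand: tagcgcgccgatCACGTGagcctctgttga

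The window of Lamp1 held 4 copies of the motif within the 61 bases before the start, and those of Atp6v0b, Cln3, Mcoln1 and Clcn7 held 2 each. In the window of Clcn7 the second copy lies past the stretch printed. The other 3 windows held 1 copy. The window of Cln3 that holds the motif belongs to an alternative start downstream of the start in GENCODE M21, and the window at that start holds none. The windows of Atp6v0e and Atp6v1a also lie wholly inside their genes as GENCODE M21 annotates them, downstream of the annotated start. Clcn7 has another window farther downstream without the motif. A match of letters is a description and not evidence that a factor binds.

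**Figure D1:**
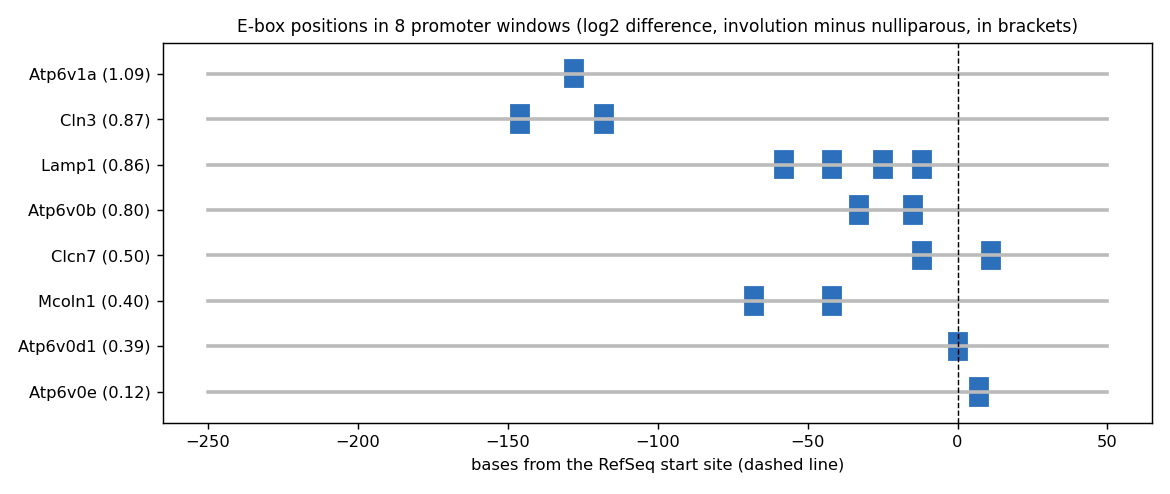
Positions of CACGTG in the RefSeq promoter windows of the members that hold it, in bases from the RefSeq start of that window, with 1 row per gene and each mark drawn to scale. Most copies begin within the 71 bases before the start, and those of Cln3 and Atp6v1a lie farther upstream. The copy of Atp6v0d1 spans the start, and the copy of Atp6v0e and the second copy of Clcn7 lie after it.

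Cells sorted from involuting glands held more RNA of most of the pump and of nearly all the membrane proteins. Values are the deposited log2 values, and a gene was called where its adjusted p was under 0.05 in the moderated two-sided test of limma with Benjamini-Hochberg adjustment over 15912 genes. By this test 25 of 37 members were higher, 0 were lower and 12 did not pass. At an unadjusted p under 0.05, 0 members were lower. Of all genes tested, 6.65% were higher and 4.66% lower. The difference was above 0 in 33 members, with a median of 0.50 on the log2 scale over the 37 members and of -0.03 over all genes tested. In 30 members every involution library lay above both nulliparous libraries, and in 0 members every involution library lay below them. Over all genes these shares were 21.9% and 25.1%. The called rises other than those of Atp6v0a4 and Atp6v0d2 lay between 1.31-fold and 2.24-fold. The mean log2 value of the 37 members was 11.01, 11.03 and 10.97 in the involution libraries, against 10.42 and 10.36 in the nulliparous libraries. In bulk RNA, a different number of cells of a type and a different amount of RNA per cell cannot be told apart.

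Of the 23 genes of the pump 13 were higher, and of the 14 membrane genes 12 were higher. Without involution replicate 1, 2 or 3 the number of members called higher was 18, 12 and 19, and without nulliparous replicate 1 or 2 it was 9 and 12, against 25 with all 5 libraries. Under a filter that kept every row with a read, with 28311 genes tested, 12 members were called. Atp6v0d2, Atp6v1a, Atp6v1b2, Scarb2, Cd63, Ostm1, Slc17a5 and Cln3 passed with each of 14 alternative settings, and 0 of the 25 changed sign under any of them.

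**Figure D2:**
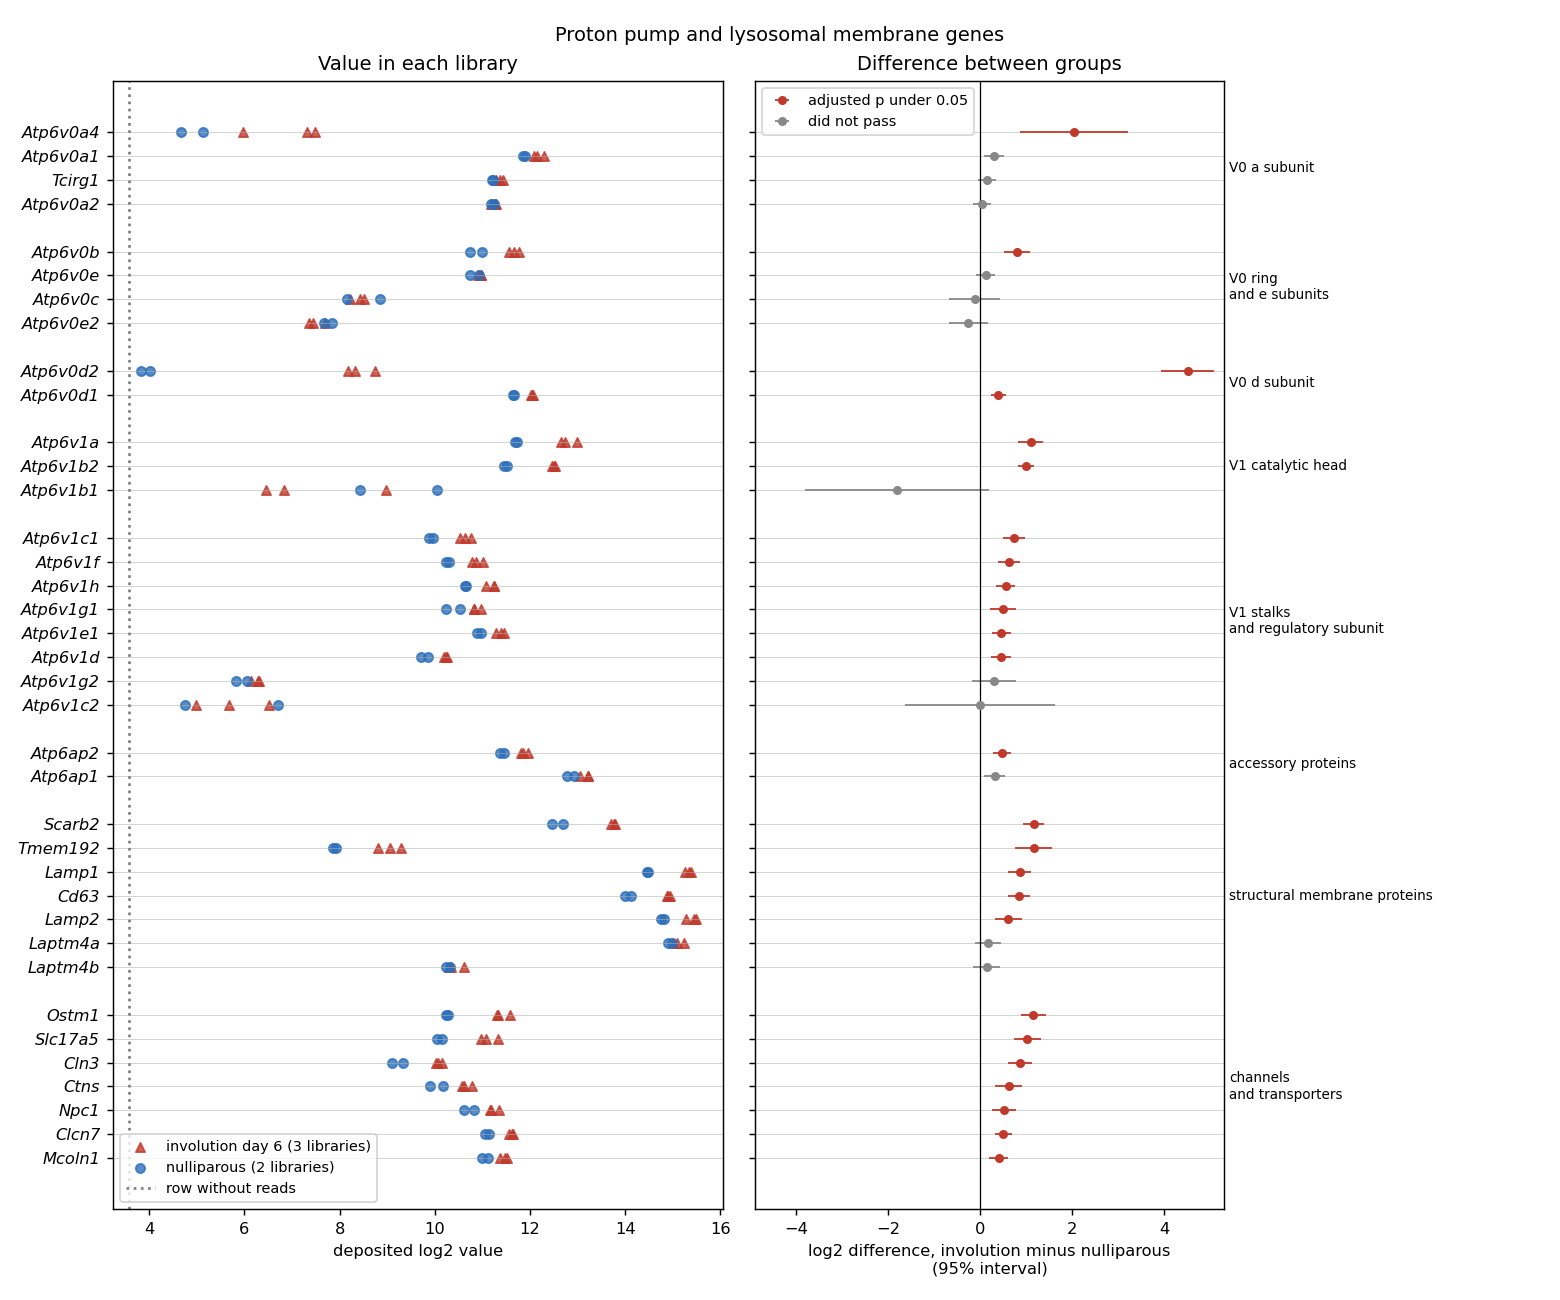
The left panel shows the deposited log2 value of each member in each of the 3 involution libraries (triangles) and 2 nulliparous libraries (circles), with a dotted line at the value of rows without reads. The right panel shows the difference of involution minus nulliparous with its 95% interval from limma, in red where the adjusted p was under 0.05. Atp6v0d2 stands apart at 4.50, and the other called members except Atp6v0a4 lie between 0.39 and 1.16.

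RNA of other cell types was present in the sorted cells and differed between libraries. The mean log2 value of 14 macrophage markers was 9.30, 8.64 and 7.90 in involution and 7.83 and 7.06 in nulliparous libraries, and their summed unlogged values ran from 5845 to 16515 in involution and from 2622 to 5496 in nulliparous libraries. Adgre1 and Lyz2 were the 2 of these 14 that passed, both higher. All 14 passed the filter, which uses the mean over the 5 libraries. In nulliparous replicate 2, however, Cx3cr1 (4.28) and Fcgr1 (4.43) lay near the value of rows without reads. Fibroblast markers averaged 17.31, 17.25 and 17.17 in involution and 16.92 and 17.00 in nulliparous libraries, and the sorted receptor gene Pdgfra had 16.09, 15.88 and 15.69 in involution and 15.87 and 15.93 in nulliparous libraries. The 11 fibroblast markers had a median difference of 0.38, with 9 above 0 and 0 called by limma. In 6 of them every involution library lay above both nulliparous ones and in 1 below them, against 21.9% and 25.1% of all genes tested.

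The difference was above 0 in all 14 macrophage markers, with a median of 1.21 on the log2 scale. In 7 of them every involution library lay above both nulliparous ones, against 21.9% of all genes tested. Of all genes, 6.65% were called higher. Cd68 and Laptm5, which encode lysosomal proteins of macrophages and were named after their values were seen, had differences of 0.79 ± 0.37 and 1.13 ± 0.48 (SE), and neither passed (adjusted p = 0.219 and 0.181). Macrophages are cells rich in lysosomes, and the part of their RNA in the rise of the members was not tested.

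Other marker lists also differed. The 15 epithelial markers had a median difference of -1.29, with 0 called by limma. Of these, 2 had a difference above 0, Ltf at 2.98 and Csn2 at 3.27. At an unadjusted p under 0.05, 4 epithelial markers were lower and 1 higher. The 8 pericyte and smooth muscle markers had a median difference of -1.02, and all 8 were lower on average in involution libraries, with 0 called by limma (3 lower at an unadjusted p under 0.05). Jchain, a gene of antibody-secreting cells, had 12.20, 11.09 and 10.11 in involution and 6.58 and 5.94 in nulliparous libraries and was the 1 of 13 markers of other leukocytes that passed (29.3-fold higher, adjusted p = 0.00637). The adipocyte gene Cfd had 4.16, 3.65 and 4.37 in involution and 6.05 and 5.88 in nulliparous libraries and was lower (difference -1.91 ± 0.29 SE, adjusted p = 0.0125). The part of these cells in the results was not tested.

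**Figure D3:**
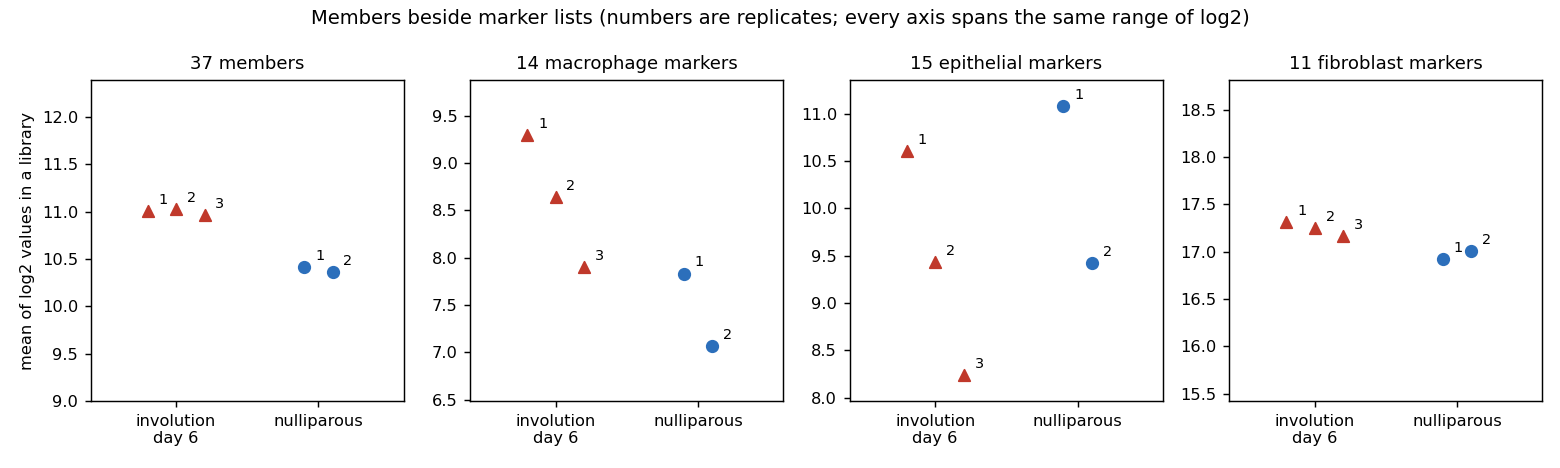
Mean log2 value of the 37 members and of the macrophage, epithelial and fibroblast markers in the 3 involution and 2 nulliparous libraries, each point a library with its replicate number. The member mean separates the groups by more than its spread within them, and the macrophage and epithelial means spread over more than 1 unit within the involution group.

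Of the 11 genes of the V1 sector 8 were called higher, against 6.65% of all genes tested. These were the genes of A, B2, C1, D, E1, F, G1 and H, and the paralogs Atp6v1b1, Atp6v1c2 and Atp6v1g2 did not pass. The catalytic A subunit, Atp6v1a (chromosome 16, 44085402 to 44139705, minus strand, as annotated in GENCODE M21 on GRCm38), had values of 12.74, 12.99 and 12.65 in involution libraries 1, 2 and 3, against 11.72 and 11.68 in nulliparous libraries 1 and 2. Replicates stand in this order throughout. Every involution library lay above both nulliparous ones, and the rise was 2.13-fold (log2 difference 1.09 ± 0.12 SE, adjusted p = 0.00497). Atp6v1b2 (chromosome 8, 69088646 to 69113711, plus strand), which encodes the widely expressed form of the nucleotide-binding B subunit, had 12.45, 12.52 and 12.49 in involution and 11.46 and 11.52 in nulliparous libraries. It rose 2.00-fold (log2 difference 1.00 ± 0.07 SE, adjusted p = 0.00259), with replicates that differed by less than 0.1 within each group.

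Its paralog Atp6v1b1, the form of kidney and other acid-secreting epithelia, had 8.97, 6.46 and 6.82 in involution libraries and 10.04 and 8.43 in nulliparous libraries. The groups overlapped and the libraries spread widely within each group, and the difference of -1.82 ± 0.83 (SE) did not pass (adjusted p = 0.207). Without involution replicate 1 the difference was -2.59 and passed (adjusted p = 0.0462). The mean log2 value of 15 epithelial markers was 10.61, 9.43 and 8.24 in the same involution libraries and 11.08 and 9.42 in the nulliparous libraries. Replicate 1 thus had the highest value of its group in both measures and in both groups, and the part of epithelial RNA in Atp6v1b1 was not tested.

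The rises of the stalk genes lay between 1.37-fold and 1.66-fold. The C subunit, which clamps the stator and is released when the pump comes apart, is encoded by Atp6v1c1, with 10.54, 10.77 and 10.64 in involution and 9.97 and 9.87 in nulliparous libraries (1.66-fold higher, adjusted p = 0.0098). Atp6v1f, of the rotating central stalk, had 10.78, 10.86 and 11.02 in involution libraries, against 10.23 and 10.29 in nulliparous libraries (1.54-fold higher, adjusted p = 0.0139). Atp6v1h, a regulatory subunit that joins the sectors, had 11.08, 11.25 and 11.25 in involution and 10.65 and 10.63 in nulliparous libraries (1.46-fold higher, adjusted p = 0.0149). In each of these 3 genes the groups were apart by more than the spread within them.

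Rises below 1.5-fold were found for the other stalk genes. Atp6v1g1, of the peripheral stalks, had 10.96, 10.83 and 10.83 in involution and 10.53 and 10.22 in nulliparous libraries (1.41-fold, adjusted p = 0.0448). Its partner Atp6v1e1 had 11.29, 11.39 and 11.45 in involution and 10.96 and 10.88 in nulliparous libraries (1.37-fold, adjusted p = 0.023). Atp6v1d, the axle of the rotor, had 10.19, 10.24 and 10.25 in involution and 9.85 and 9.70 in nulliparous libraries (1.37-fold, adjusted p = 0.029). The groups did not overlap in any of the 3. Without nulliparous replicate 2 none of the 6 stalk genes passed, with adjusted p from 0.0585 for Atp6v1c1 to 0.162 for Atp6v1g1. Without nulliparous replicate 1 Atp6v1c1 alone of the 6 passed (adjusted p = 0.04998), and the others had adjusted p from 0.0526 to 0.0808. Without involution replicate 2 Atp6v1c1 alone passed too, and the adjusted p of the others reached 0.1175. Atp6v1d and Atp6v1g1 also did not pass without involution replicate 1 or 3, with adjusted p up to 0.115, and Atp6v1e1 did not without involution replicate 3 (adjusted p = 0.0537).

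The minor C and G paralogs were weakly expressed. Atp6v1c2, the epithelial C form, had 6.53, 5.67 and 4.98 in involution and 6.71 and 4.74 in nulliparous libraries, a spread within groups that covers any difference between them (adjusted p = 0.999). Atp6v1g2, the G form known from neurons, had 6.14, 6.28 and 6.3 in involution and 5.83 and 6.06 in nulliparous libraries. The groups did not overlap, but the difference of 0.30 ± 0.20 (SE) did not pass (adjusted p = 0.374).

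In the V0 sector 4 of 10 genes were called higher, against 6.65% of all genes tested. The change of the d2 paralog exceeded that of any other member. Atp6v0d2 (chromosome 4, 19876841 to 19922605, minus strand) encodes a form of the d subunit, which couples the rotor to the membrane ring, and in mouse osteoclasts it is also known for its part in cell fusion. It had 8.33, 8.75 and 8.17 in involution libraries and 3.82 and 4.01 in nulliparous libraries, where rows without reads stand at 3.57. Both nulliparous values thus lie close to those of genes without reads, and every involution value lies far above them. The deposited values differ by 4.50 ± 0.24 (SE, log2), 22.7-fold, with an adjusted p of 0.00126, and the rise ranks 8 among those of all genes tested. With a nulliparous level so near the offset, the fold depends on how the offset is handled, from 2.84 on the log2 scale with the offset removed and 50 added to 6.32 with 1 added. The principal form, Atp6v0d1, had 12.04, 12.02 and 12.05 in involution and 11.66 and 11.63 in nulliparous libraries and rose 1.31-fold (adjusted p = 0.0198). Replicates of Atp6v0d1 lay within 0.04 of each other in each group, but the call was lost without either nulliparous library or without involution replicate 1 or 2, with adjusted p up to 0.0902.

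Among the 4 a subunits, which form the path of the protons beside the ring and direct the pump to its membrane, only the kidney form passed. Atp6v0a4 had 5.96, 7.49 and 7.32 in involution and 4.67 and 5.12 in nulliparous libraries, a difference of 2.03 ± 0.48 (SE, log2, adjusted p = 0.0481). Involution replicate 1 lay between the other involution libraries and the nulliparous ones. The call held under 3 of 14 alternatives, and was lost without involution replicate 2 or 3 or either nulliparous library, with adjusted p up to 0.194. With the offset removed and 50 added the difference was 1.26.

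The 3 abundant a forms did not pass. Atp6v0a1 had 12.15, 12.09 and 12.30 in involution and 11.85 and 11.90 in nulliparous libraries, without overlap (difference 0.30 ± 0.09 SE, adjusted p = 0.0785). Tcirg1, whose a3 protein carries the pump to the bone-facing membrane of osteoclasts, had 11.44, 11.38 and 11.28 in involution and 11.22 and 11.20 in nulliparous libraries (adjusted p = 0.262). Atp6v0a2, a form of the Golgi and endosomes, had 11.29, 11.26 and 11.17 in involution and 11.23 and 11.18 in nulliparous libraries, which overlap (adjusted p = 0.799). The 95% intervals of the differences reach 0.52, 0.35 and 0.22 on the log2 scale in the same order of genes, so rises of up to that size lie within the error.

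Of the proteolipids of the ring, Atp6v0b had 11.55, 11.67 and 11.78 in involution and 10.73 and 11.00 in nulliparous libraries and rose 1.74-fold (adjusted p = 0.0107; 0.0579 without nulliparous replicate 1, where it no longer passed). Atp6v0c, which supplies most of the ring, had 8.44, 8.21 and 8.51 in involution and 8.16 and 8.86 in nulliparous libraries and did not pass (adjusted p = 0.764). Pseudogenes of Atp6v0c stand in the annotation, and reads may be split or lost between them and the gene, so its level is uncertain. The small e subunits are encoded by Atp6v0e, with values from 10.90 to 10.97 in involution and 10.74 to 10.92 in nulliparous libraries, and Atp6v0e2, with 7.36 to 7.68 in involution and 7.66 to 7.85 in nulliparous libraries. Neither passed (adjusted p = 0.425 and 0.375).

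Both accessory proteins lay higher in every involution library. Atp6ap2, known also as the prorenin receptor, had 11.81, 11.97 and 11.85 in involution and 11.45 and 11.36 in nulliparous libraries (1.39-fold higher, adjusted p = 0.0198; up to 0.099 without nulliparous replicate 1 or 2 or involution replicate 2, or under other settings). Atp6ap1, which helps to assemble the pump, had 13.21, 13.06 and 13.21 in involution and 12.92 and 12.77 in nulliparous libraries and did not pass (difference 0.32 ± 0.09 SE, adjusted p = 0.0818).

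Shares of the paralogs within a subunit were computed per kilobase of annotated exon, after the offset was removed from the unlogged values. With 3 against 2 libraries the smallest exact two-sided permutation p is 0.1, so these shares are descriptions. Atp6v0d2 made up 4.66%, 6.27% and 4.11% of the d subunit in involution libraries and 0.0464% and 0.0878% in nulliparous libraries, so Atp6v0d1 was the main form in both groups. Atp6v0a4 made up 0.606%, 2.07% and 1.78% of the a subunit in involution and 0.191% and 0.321% in nulliparous libraries. Atp6v0a1 led that subunit in both groups, with 41.3%, 40.6% and 45.7% in involution and 39.0% and 40.4% in nulliparous libraries. The share of Atp6v1b1 in the B subunit was 9.57%, 1.55% and 2.09% in involution libraries and 31.0% and 12.1% in nulliparous libraries, and that of Atp6v1c2 in the C subunit spread from 3.11% to 12.3% in involution and from 3.99% to 19.5% in nulliparous libraries.

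**Figure D4:**
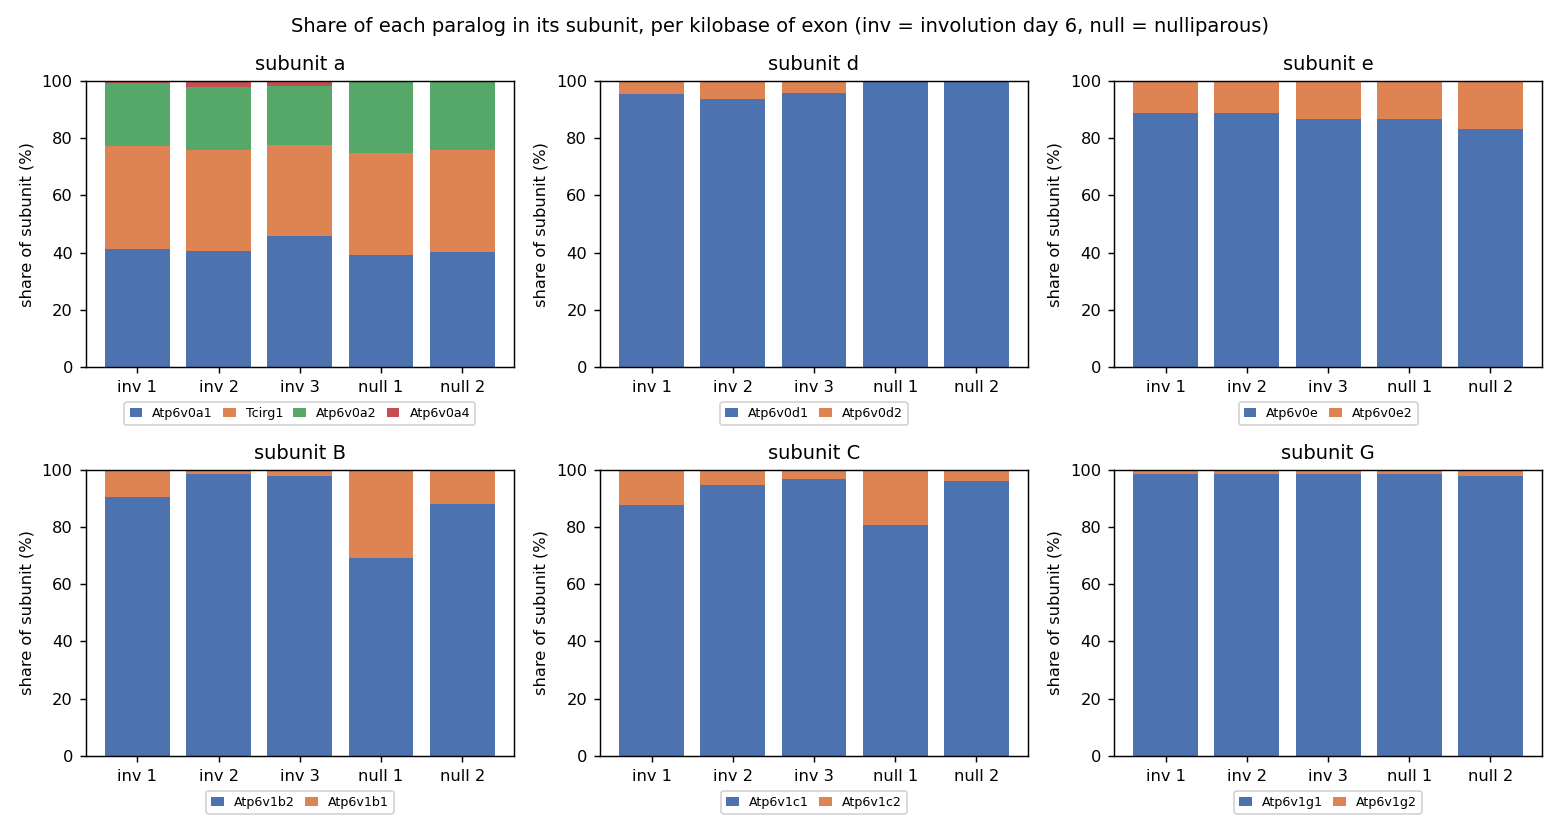
Share of each paralog in the summed value of its subunit, in percent, per kilobase of annotated exon and with the offset removed, in each of the 3 involution and 2 nulliparous libraries. Atp6v0d2 takes 4.11% to 6.27% of the d subunit in involution libraries and under 0.1% in nulliparous libraries, and the share of Atp6v1b1 varies most between libraries.

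Of the 7 structural proteins of the lysosomal membrane 5 rose. Lamp1 (chromosome 8, 13159161 to 13175338, plus strand), a heavily glycosylated protein that coats the inner face of the membrane, had 15.38, 15.35 and 15.26 in involution and 14.46 and 14.48 in nulliparous libraries. It rose 1.81-fold (log2 difference 0.86 ± 0.10 SE, adjusted p = 0.00682; 0.0522 without nulliparous replicate 1, where it no longer passed). Its relative Lamp2, with a splice form that serves chaperone-mediated autophagy, had 15.48, 15.44 and 15.27 in involution and 14.75 and 14.82 in nulliparous libraries and rose 1.53-fold (adjusted p = 0.0266). The rise of Lamp2 was the less secure of this pair. It did not pass without either nulliparous library, without involution replicate 1 or 2, with the filter that kept every row with a read, or under quantile normalization. Over these settings the adjusted p reached 0.157 and the lowest difference was 0.28.

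Scarb2 (chromosome 5, 92441314 to 92506833, minus strand), whose protein LIMP-2 carries glucocerebrosidase to lysosomes, had 13.70, 13.76 and 13.77 in involution and 12.70 and 12.47 in nulliparous libraries. The rise was 2.24-fold (log2 difference 1.16 ± 0.10 SE, adjusted p = 0.0032). Cd63, a tetraspanin of late endosomes and exosomes, had 14.94, 14.87 and 14.89 in involution and 14.11 and 13.99 in nulliparous libraries and rose 1.80-fold (adjusted p = 0.00589). A pseudogene of Cd63 stands in the annotation, so some of its reads may be shared. Tmem192, of low abundance, had 8.81, 9.29 and 9.05 in involution and 7.92 and 7.85 in nulliparous libraries and rose 2.24-fold (adjusted p = 0.0113; up to 0.0645 without either nulliparous library or with the filter that kept every row with a read).

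The Laptm4 pair did not pass. Laptm4a had 15.23, 15.01 and 15.08 in involution and 14.98 and 14.90 in nulliparous libraries (difference 0.17 ± 0.12 SE, adjusted p = 0.401), and under quantile normalization its difference was -0.12. Laptm4b had 10.33, 10.62 and 10.30 in involution and 10.32 and 10.23 in nulliparous libraries, which overlap (adjusted p = 0.493). The 95% intervals of the differences reach 0.45 and 0.44 on the log2 scale, short of the rise of Lamp1.

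All 7 channels and transporters were called higher. Clcn7 exchanges chloride for protons and needs its partner Ostm1 to be stable. Ostm1 (chromosome 10, 42583822 to 42702459, plus strand) had 11.32, 11.59 and 11.30 in involution and 10.27 and 10.23 in nulliparous libraries and rose 2.22-fold (log2 difference 1.15 ± 0.11 SE, adjusted p = 0.00402). Clcn7 had 11.55, 11.62 and 11.64 in involution and 11.06 and 11.14 in nulliparous libraries and rose 1.41-fold (adjusted p = 0.0129). The genes of this exchanger thus both rose, and their difference from each other was not tested. Clcn7 lost its call without nulliparous replicate 1 or involution replicate 2 (adjusted p up to 0.0744).

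Export of small molecules was represented by Slc17a5, Ctns, Cln3 and Npc1. Slc17a5, the sialic acid exporter sialin, had 11.07, 11.33 and 10.97 in involution and 10.05 and 10.14 in nulliparous libraries (2.03-fold higher, adjusted p = 0.00661). Ctns, which exports cystine, had 10.62, 10.78 and 10.57 in involution and 9.90 and 10.18 in nulliparous libraries (1.54-fold higher, adjusted p = 0.0257). Their nulliparous libraries all lay below the lowest involution library. Cln3, mutated in juvenile Batten disease in humans, had 10.16, 10.07 and 10.03 in involution and 9.10 and 9.33 in nulliparous libraries (1.83-fold higher, adjusted p = 0.00734). Npc1, which moves cholesterol out of the lysosome, had 11.16, 11.36 and 11.18 in involution and 10.61 and 10.83 in nulliparous libraries (1.43-fold higher, adjusted p = 0.0303). Mcoln1, a calcium-conducting channel of the membrane, had 11.37, 11.48 and 11.52 in involution and 11.00 and 11.11 in nulliparous libraries (1.32-fold higher, adjusted p = 0.0356). The calls of Npc1 and Mcoln1 were lost without any 1 of the 5 libraries, with adjusted p up to 0.137 and 0.155, and that of Ctns without involution replicate 1 or 2 or nulliparous replicate 1, with adjusted p up to 0.115.

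Per kilobase of exon, with the offset removed, the most abundant member in both groups was Laptm4a, at 19949 ± 1576 in involution (SD, n = 3) and 17748 ± 686 in nulliparous libraries (SD, n = 2). Lamp1 followed at 15387 ± 682 in involution and 8473 ± 89.3 in nulliparous libraries, then Cd63 at 8300.0 ± 198 and 4612 ± 276, and Lamp2 at 4520 ± 335 and 2955 ± 106. The most abundant pump gene was Atp6ap1, at 3024 ± 183 in involution and 2430 ± 173 in nulliparous libraries, followed by Atp6v0d1 at 2335 ± 27.6 and 1781 ± 19.8. Atp6v0d2 stood at 123 ± 27.7 in involution and at 1.19 ± 0.51 in nulliparous libraries, where it had the lowest level of the 37 members. In involution libraries the lowest level was that of Atp6v1c2, at 21.3 ± 14.2. Summed over the pump, these levels were 17843, 18016 and 18301 in involution and 13163 and 12557 in nulliparous libraries, and summed over the membrane genes 56659, 53390 and 52418 in involution and 37809 and 36683 in nulliparous libraries.

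**Figure D5:**
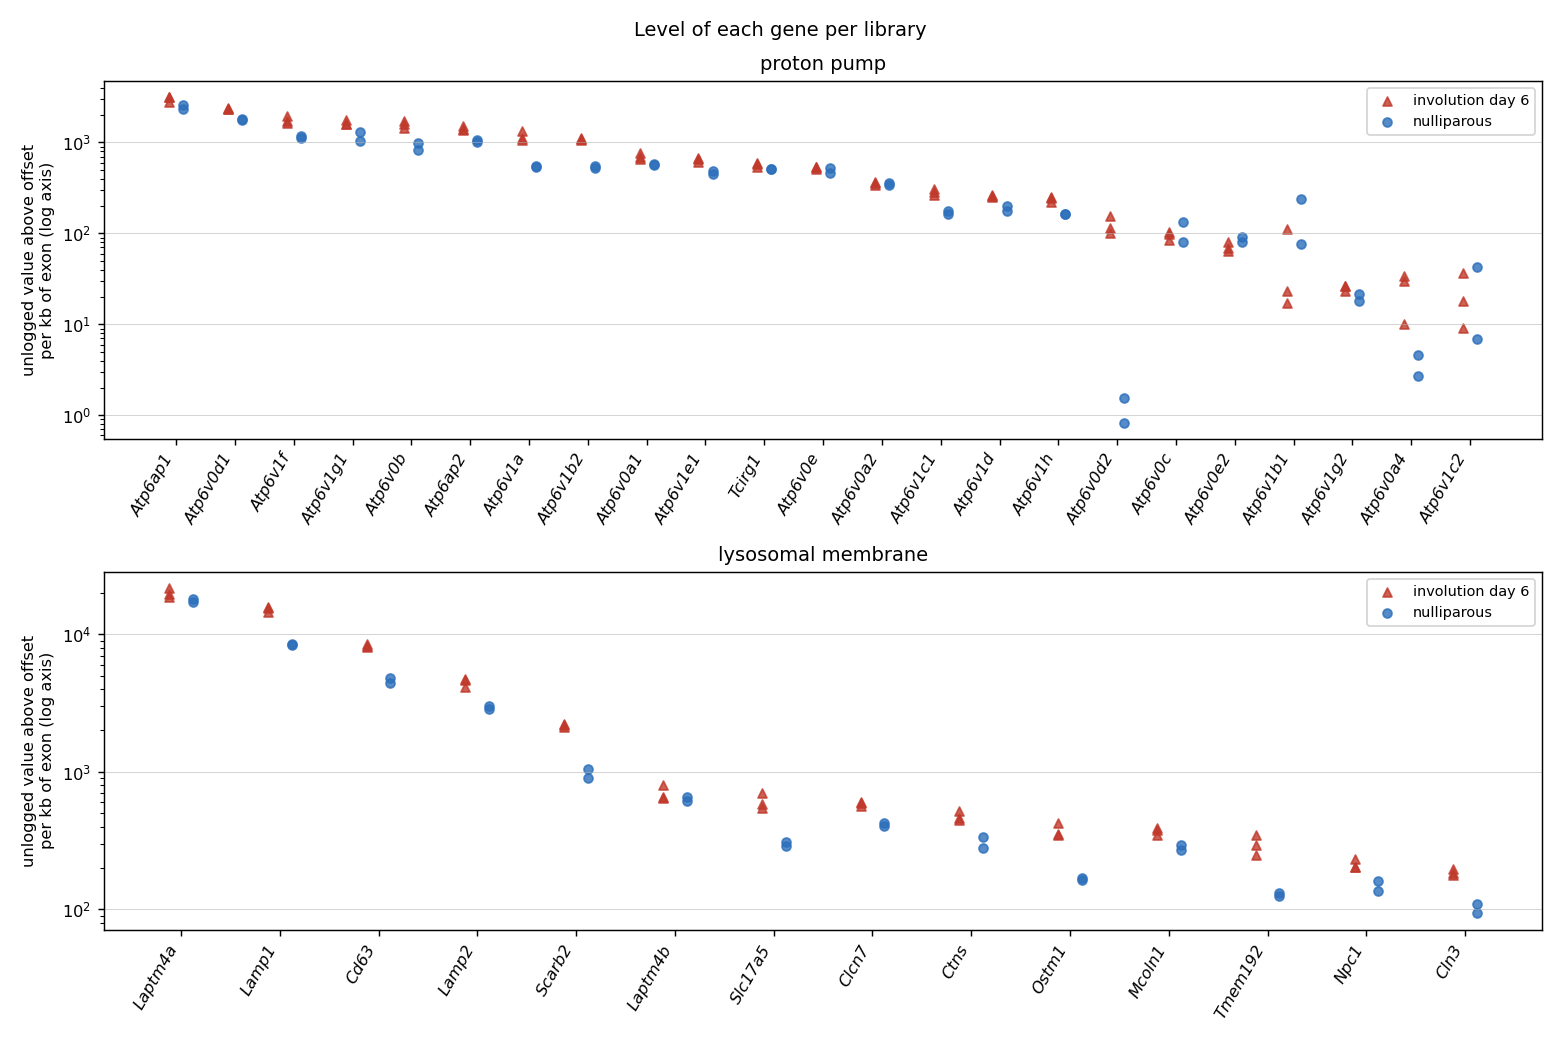
Level of each member per kilobase of annotated exon, with the offset removed, on a log axis, in the 3 involution and 2 nulliparous libraries. Laptm4a and Lamp1 lead in both groups, and Atp6v0d2 averages 123 in involution libraries and 1.19 in nulliparous libraries.

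Of the 8 members with CACGTG in their promoter window, shown above, 7 were called higher, with a median log2 difference of 0.65. Of the 21 matched members without it 12 were called, with a median of 0.46. Atp6v0e was the member with the motif that did not pass. The members without a matched window are not in this split. Over all genes tested 6.65% were called higher, and of the 1259 tested genes with the motif in a window 112 were. Among the 11198 tested genes with a window, the motif was found in 14.9% of genes called higher, 8.41% of genes called lower and 11.1% of genes that did not pass.

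Other genes of the lysosome moved in part with the members. The lists below come from textbook roles, and of all genes tested 6.65% were called higher and 4.66% lower. Of 16 tested genes of the Ragulator, Rag GTPases and mTORC1, which sense nutrients at the lysosomal surface and dock on the pump, 7 were higher and 1 lower (median difference 0.38, against -0.03 over all genes). Rragd, which encodes a Rag GTPase, had 9.77, 10.29 and 9.52 in involution and 6.84 and 7.71 in nulliparous libraries and rose 5.97-fold (adjusted p = 0.00716). Fnip2, a partner of folliculin, rose 2.66-fold (adjusted p = 0.0118), and the Ragulator subunit genes Lamtor1 and Lamtor4 rose 1.56-fold (adjusted p = 0.0136) and 1.50-fold (adjusted p = 0.017). Mtor itself, named after its value was seen, was lower (difference -0.36 ± 0.09 SE, adjusted p = 0.0481).

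Of 29 tested genes of further lysosomal channels and transporters 10 were higher and 0 lower, against 6.65% and 4.66% of all genes. The 29 genes had a median difference of 0.38, and 0 were lower at an unadjusted p under 0.05. Those with the smallest p were Slc15a3, a peptide and histidine transporter (3.77-fold, adjusted p = 0.00322), Slc48a1, a haem transporter (1.91-fold, adjusted p = 0.0035), Mfsd1 (1.71-fold, adjusted p = 0.00417) and Npc2, the soluble cholesterol carrier that works with Npc1 (1.80-fold, adjusted p = 0.00449). Of 23 further lysosomal membrane proteins 7 were higher and 1 lower (median difference 0.21). Here Glmp, the partner of Mfsd1, rose 1.96-fold (adjusted p = 0.00272), Litaf 2.05-fold (adjusted p = 0.00563) and Arl8b, which moves lysosomes along microtubules, 1.33-fold (adjusted p = 0.0179), while Sidt1 was lower (difference -2.15 ± 0.25 SE, adjusted p = 0.00608).

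Genes that assemble and regulate the pump were not among those called. Of 11 tested, 0 were higher and 0 lower by limma (1 higher and 2 lower at an unadjusted p under 0.05), with differences from -0.37 to 0.44 and a median of 0.07. Groups did not overlap in 2 of them with involution higher and in 3 with involution lower. Over all genes tested these shares were 21.9% and 25.1%, and 6.65% were called higher and 4.66% lower. With 11 genes, the counts of this list lie near these shares. Vma21, an assembly factor, had 10.14, 10.14 and 10.23 in involution and 10.19 and 10.20 in nulliparous libraries. Of 4 other pump subunits only Rnasek passed the filter, with 4.38, 4.92 and 4.80 in involution and 5.08 and 5.63 in nulliparous libraries (adjusted p = 0.196). Vma21 and Rnasek were named after their values were seen.

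Osteoclast genes were set beside Atp6v0d2 because it is best known from these cells. Of 10 markers 6 passed the filter. Of these, Calcr, Tnfrsf11a, Nfatc1 and Mmp9 did not pass the test, with differences from -0.30 to 0.69. Acp5, the tartrate-resistant acid phosphatase, had 11.53, 11.52 and 11.50 in involution and 8.79 and 8.98 in nulliparous libraries and rose 6.19-fold (adjusted p = 0.000449), while Itgb3 was lower (difference -0.40 ± 0.08 SE, adjusted p = 0.0303). Siglec15 stood at the value of rows without reads in all 5 libraries. The fusion gene Dcstamp had 4.44, 4.03 and 3.85 in involution and 3.63 and 3.70 in nulliparous libraries. Its relative Ocstamp had 4.23, 4.57 and 4.50 in involution and 3.98 and 4.01 in nulliparous libraries. Every involution value of Dcstamp and Ocstamp thus lay above both nulliparous ones. Oscar lay between 3.56 and 3.93 in involution and between 3.66 and 3.69 in nulliparous libraries. These genes and Siglec15 lay below the filter and were not tested. The summed unlogged values of the list ran from 8118 to 8688 in involution and from 7184 to 7805 in nulliparous libraries. Itgb3 had the highest value of the list in each library and weighs most in these sums.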

How the data were processed

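The submitters' processing notes name bcl2fastq, STAR 2.4.2a and the build GRCm38. For the counting tool, annotation, scaling and offset, the sources used here give none. The table the authors deposited holds log2 values. Rows without reads (17395) stood at 3.57, an offset of 11.85 unlogged, so differences of weak genes are understated. Unlogged totals above the offset were 40993357 to 43002174 in involution and 37564473 to 38947109 in nulliparous libraries. Counts were not available, and sampling error is judged from the spread between libraries alone. The library kit does not mark strand, so overlapping antisense reads cannot be told apart.

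Genes with a mean of at least 4.45 (10 units above the offset, 15912 genes) were tested with limma 3.58.1 in R 4.3.3 (prior variance following the mean, Benjamini-Hochberg, threshold 0.05), tested on simulated data. Libraries of a group correlated at 0.981 to 0.990 across genes, and of different groups at 0.960 to 0.974. Values per library are given for members that passed, for their paralogs and for the most abundant member of each role. Up to 4 genes with the smallest p are named per list. Members, lists and filter were chosen with earlier results of these data known. Alternatives changed the filter, prior, scaling, pseudocount, replicate block and libraries used. Coordinates and exon lengths are those of GENCODE M21.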

Additional observations from a re-analysis of the deposited data

How the results depend on the processing

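Against 25 members higher and 0 lower, 1058 genes higher and 742 lower and a median member difference of 0.50, the filter that kept every row with a read gave 12 members higher, 322 genes higher and 235 lower, and a prior without trend gave 16, 686 and 482. Leaving out 1 library gave 9 to 19 members higher, 0 to 1 lower, 296 to 786 genes higher, 208 to 483 lower and a median of 0.491 to 0.539. Without a nulliparous library, the remaining one is assumed to vary like the involution libraries. With a replicate block, 25 members were higher and 1 lower (Atp6v1b1, -1.52, adjusted p = 0.00621), with 1817 genes higher and 1449 lower. The labels do not pair the libraries. Deviations from the group means of replicates with the same number correlated at 0.577 for number 1 and 0.063 for number 2. Those of involution replicate 3 and nulliparous replicate 2 correlated at 0.51. With 2 nulliparous libraries their deviations mirror each other, so these values cannot decide on pairing. As the labels give no pairs, the block is not used elsewhere. The other settings left 22 to 25 members higher. Directions turned in members that did not pass. Atp6v1c2 was at 0.0225 with median centring, 0.0566 with quantile normalization, 0.0745 with the offset removed and 1 added, 0.37 with the block and between -0.99 and 0.98 with 1 library left out. Atp6v0c was between -0.47 and 0.22 with 1 library left out, and Laptm4a at -0.12 with quantile normalization. Atp6v1c2 had no value under the filter of 50 above the offset. The causes were not tested. Read depth is unknown, and the nulliparous values of Atp6v0d2, Atp6v0a4 and, in replicate 2, Atp6v1c2 lie near the offset.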
